A study of Mus musculus with 8 samples.

Results

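The genes described here are 10 genes of the disease-associated microglia program: Trem2, Tyrobp, Cst7, Spp1, Gpnmb, Itgax, Axl, Clec7a, Lpl and Cd68. They were taken by gene name from the spots of the arrays that were not controls, and all 10 were found, on 21 probes of the 56605. All 10 also passed the filter on dim probes, among 25883 genes in all. The study hybridised RNA of C57Bl/6J mice, labelled as spinal cord tissue and as astrocytes by source, to 8 Agilent arrays read in 1 colour, with 1 array per group. The mice were wild type, with titles marked FL or F/F, or deficient in connexin 47 (Cx47), with titles marked icKO. Each genotype had a naive array, an array from experimental autoimmune encephalomyelitis (EAE, the mouse model of multiple sclerosis), an array from EAE with the anti-inflammatory compound iguratimod, and a chronic EAE array whose title carries p50. The series title describes the knockout as conditional and specific to oligodendroglia. How the cells were isolated, how many mice each array stands for and the age of the mice were not given in the sources used here.

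Microglia are the resident macrophages of the central nervous system. Around plaques, dying cells and demyelinated lesions they take on a state in which phagocytic, lysosomal and lipid-handling genes are high and the genes of resting microglia, such as P2ry12 and Tmem119, are often lower. TREM2 is a surface receptor for lipids and apolipoproteins that signals through the adaptor TYROBP, also called DAP12, and a part of the program depends on it. Infiltrating monocytes and macrophages express most of the same genes, so the list marks activated myeloid cells and not microglia alone.

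Values are log2 processed signals from which each array's 75th percentile was subtracted, so 0 is that percentile. The brightest probe kept for a gene stands for it. Probe positions are those of the array design on the mouse genome build mm9. They were read from transcript designs, and which exon or untranslated region a probe lies in was not analysed here. With 1 array per group, the comparisons of conditions rest on a limma fit of condition plus genotype over the 8 arrays, with 3 residual degrees of freedom and p-values adjusted over all 25883 genes. Such p-values measure only the spread between these arrays, which may be technical, since the labels do not say that arrays held separate animals. Differences between 2 arrays have no test and are counted at 2-fold, which is 1 on the log2 scale. In bulk RNA, more cells of a type and more RNA of a gene per cell cannot be told apart.

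The share of spots well above background was 59.7% to 72.0% per array, and no probe of the 10 genes was saturated. The 12 astrocyte markers were well above background on all 8 arrays, but so were the 12 neuron markers, the 10 myelin markers and the 13 markers of homeostatic microglia. The chronic arrays shared 1 slide and the other 6 arrays another, so slide and chronic EAE cannot be told apart. The chronic arrays also stood apart in the signal along transcripts. Over 2284 RefSeq transcripts with probes at least 1000 bases apart and well above background on all 8 arrays, the 5′ probe minus the 3′ probe, relative to the wild-type naive array, had a median of -0.37 on the wild-type chronic array and -0.47 on the Cx47-deficient one. On the other 5 arrays that median was between -0.05 and 0.03.

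The sequences that bear on the results are those of 3 probes, because 2 of them read the same gene differently. The Tyrobp probe lies at chr7:31200651-31202378 on the plus strand and spans 1728 bases of the genome, so it crosses a splice junction of transcript NM_011662. Its capitals mark the bases that encode the start of the immunoreceptor tyrosine-based activation motif (ITAM), through which the adaptor signals. The first Lpl probe, at chr8:71425050-71425109 on the plus strand, was designed on the RefSeq transcript NM_008509 and starts at base 1340 of it. Another probe of that transcript, at base 3484, is brighter; it is the one called the RefSeq probe in the results, and its sequence is not shown. The second, at chr8:71413311-71413370 on the plus strand, was designed on ENSMUST00000101463 and is the brightest of the 6 Lpl probes. No base is set in capitals in the Lpl probes.
Tyrobp: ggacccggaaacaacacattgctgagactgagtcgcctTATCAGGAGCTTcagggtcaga
Lpl (RefSeq transcript, base 1340): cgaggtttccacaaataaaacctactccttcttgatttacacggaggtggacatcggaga
Lpl (brightest): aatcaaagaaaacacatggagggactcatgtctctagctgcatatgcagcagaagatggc

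Promoters of 8 of the 10 genes were found in the RefSeq table, on the build GRCm38.p6, and those of Tyrobp and Lpl were not. They are shown because 9 of the 10 genes had a fitted difference above 0 in EAE against naive. What part a motif had in that was not tested. The 250 bases before the start were searched on both strands for 3 motifs. AGGAAG is the core bound by the myeloid factor PU.1. TGANTCA is a loose form of the AP-1 site, and TCANGTGA one of the site of the lysosomal factors of the TFE and MITF family. N stands for any base, so both loose forms also take in sequences outside the usual sites of these factors. The matches TGAATCA in Trem2 and TCAAGTGA in Cst7 are such sequences. AGGAAG was found in 4 of the 8 genes (Axl, Cst7, Spp1 and Trem2) and in 29.5% of 32851 promoters. TGANTCA was found in 3 of the 8 (Cd68, Itgax and Trem2) and in 6.7% of promoters. TCANGTGA was found in Cst7 alone of the 8 and in 3.5% of promoters. The percentages count promoters and not genes. By promoter, the 8 genes had 10, of which 5 held AGGAAG, 3 TGANTCA and 1 TCANGTGA. A match of letters is not a bound site. The promoters of Trem2 (chr17:48346151-48346400, plus strand), Cst7 (chr2:150570165-150570414, plus strand) and Itgax (chr7:128129300-128129549, plus strand) are given 5′ to 3′ with the matches in capitals.
Trem2: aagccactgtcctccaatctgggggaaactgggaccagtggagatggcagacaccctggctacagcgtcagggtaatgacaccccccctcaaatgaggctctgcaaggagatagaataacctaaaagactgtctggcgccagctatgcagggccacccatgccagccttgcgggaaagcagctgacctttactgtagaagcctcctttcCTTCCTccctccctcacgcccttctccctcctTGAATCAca
Cst7: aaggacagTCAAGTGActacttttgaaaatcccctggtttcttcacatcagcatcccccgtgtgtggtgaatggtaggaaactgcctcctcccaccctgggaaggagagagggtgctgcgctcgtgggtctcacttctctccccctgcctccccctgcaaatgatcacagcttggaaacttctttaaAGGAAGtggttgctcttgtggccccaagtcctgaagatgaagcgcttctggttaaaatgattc
Itgax: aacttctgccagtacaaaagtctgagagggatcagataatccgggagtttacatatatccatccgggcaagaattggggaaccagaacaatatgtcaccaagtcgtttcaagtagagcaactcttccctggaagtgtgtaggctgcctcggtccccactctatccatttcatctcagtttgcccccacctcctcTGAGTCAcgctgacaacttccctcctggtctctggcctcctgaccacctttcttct

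The receptor and its adaptor were well above background on all 8 arrays, naive ones included. Trem2 (transcript NM_001272078, chr17:48491537-48491596, plus strand) was at 1.84 on the wild-type naive array and 1.96 on the Cx47-deficient naive array. In EAE it was at 2.80 and 3.18, with iguratimod at 2.01 and 3.23, and in chronic EAE at 1.48 and 1.66, wild type first. The 2 highest values were thus those of the Cx47-deficient EAE and iguratimod arrays, and the wild-type iguratimod array lay close to the naive ones. Tyrobp was at 2.25 and 1.89 in the naive pair, 3.42 and 3.81 in EAE, 2.81 and 3.78 with iguratimod, and 1.36 and 1.71 in chronic EAE. As for Trem2, both chronic arrays lay below both naive arrays, an order that was not counted over all genes. Slide and chronic EAE cannot be told apart in it.

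Of the other surface receptors, Clec7a encodes Dectin-1, a lectin receptor for beta-glucans that carries an ITAM-like motif of its own (NM_020008, chr6:129411739-129411798, minus strand). Its signal was -3.24 and -2.91 in the naive pair, 1.18 and 2.24 in EAE, 0.38 and 1.79 with iguratimod, and -1.82 and -1.17 in chronic EAE. The 4 EAE and iguratimod arrays lay above the chronic ones, and the chronic ones above the naive ones, with no overlap. Orders of arrays such as this one were not counted over all genes. Where they involve the chronic arrays, an effect of slide cannot be told apart from chronic EAE. Itgax encodes CD11c, the alpha subunit of an integrin of dendritic cells and activated microglia (NM_021334, chr7:135294052-135294111, plus strand). It was not well above background on either naive array, at -5.87 and -5.53, and was at -1.18 and -0.01 in EAE, -2.62 and -0.20 with iguratimod, and -3.50 and -3.07 in chronic EAE. Its other 2 probes were left out by the filter. Axl is a receptor tyrosine kinase of the TAM family, which binds apoptotic cells through the bridging ligand GAS6 (NM_009465, chr7:26542335-26542394, minus strand). It was at 2.5 and 2.28 in the naive pair, 3.06 and 3.22 in EAE, 2.77 and 3.18 with iguratimod, and 1.21 and 1.92 in chronic EAE, with the chronic arrays lowest.

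Among the genes of the lysosome and of phagocytes, Cd68 encodes a lysosomal membrane glycoprotein of macrophages (NM_001291058, chr11:69477775-69477834, minus strand). It was at 0.17 and 0.30 in the naive pair, 1.42 and 1.98 in EAE, 0.65 and 1.88 with iguratimod, and 0.40 and 0.28 in chronic EAE. Its chronic values were thus close to its naive ones. Cst7 encodes cystatin F, an inhibitor of lysosomal cysteine proteases (NM_009977, chr2:150404490-150404549, plus strand). It was at -4.38 on the wild-type naive array, not well above background at -5.74 on the other naive array, at -0.20 and 1.04 in EAE, -1.07 and 0.81 with iguratimod, and -3.59 and -2.46 in chronic EAE. Gpnmb encodes a transmembrane glycoprotein of phagocytes and melanosomes (NM_053110, chr6:49006386-49006445, plus strand). It was not well above background on the wild-type naive array, at -6.06, and was at -5.20 on the other naive array, -1.81 and -0.17 in EAE, -2.41 and -0.84 with iguratimod, and -2.36 and -3.61 in chronic EAE. The wild-type chronic array was above the wild-type iguratimod array for Gpnmb, which held for no other gene of the list except Lpl.

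Of the secreted proteins, Spp1 encodes osteopontin, a secreted ligand of integrins and CD44 (NM_009263, chr5:104869788-104869847, plus strand). It was at 1.44 and 0.40 in the naive pair, 2.01 and 2.0 in EAE, 1.58 and 2.05 with iguratimod, and 1.24 and 1.57 in chronic EAE. The naive arrays were 1.04 apart, close to the fitted difference of 1.08 between EAE and naive. Lpl encodes lipoprotein lipase, which releases fatty acids from triglycerides. Its brightest probe was at -0.67 and 0.35 in the naive pair, -1.54 and 0.03 in EAE, -0.72 and -0.85 with iguratimod, and 1.54 and 1.35 in chronic EAE. It was highest in chronic EAE, where 6 of the other 9 genes were lower than in EAE by the test.

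**Figure D1:**
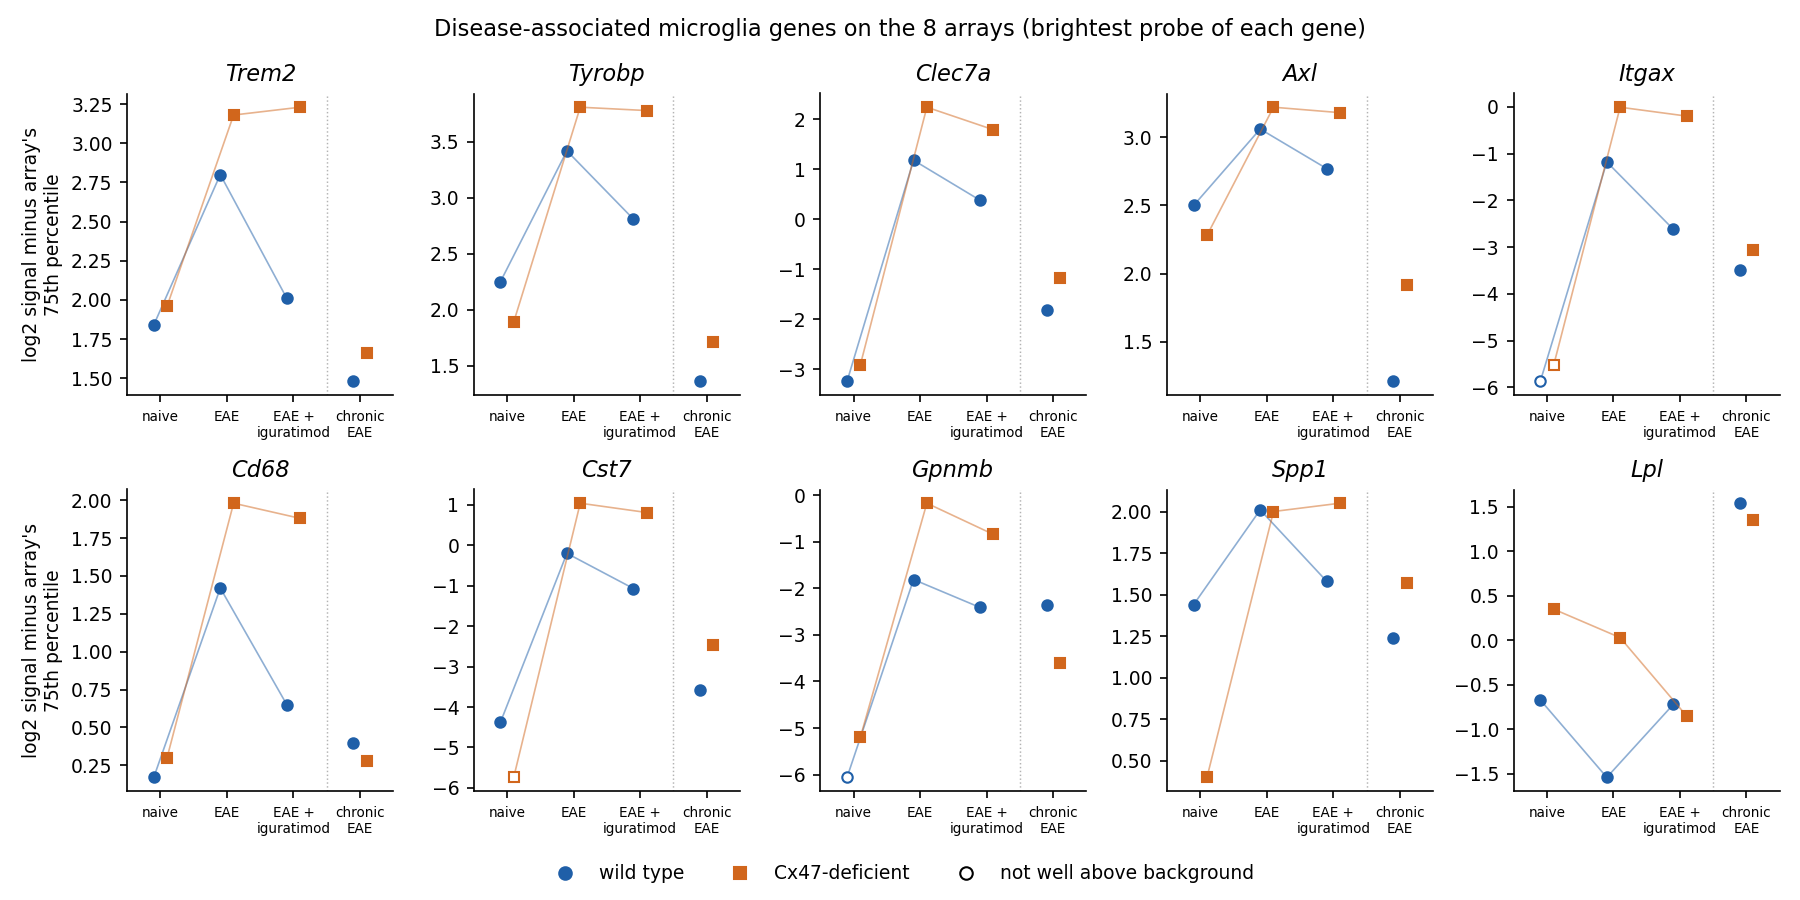
Signal of the brightest probe of each of the 10 genes on the 8 arrays, as log2 signal minus the array's 75th percentile (each panel has its own vertical range); circles are wild-type arrays, squares Cx47-deficient arrays, open symbols were not well above background, lines join the arrays of slide 1 and the dotted line marks the change of slide. Except for Lpl, both EAE arrays lie above both naive arrays, an order that was not counted over all genes. Except for Spp1, the Cx47-deficient EAE array lies above the wild-type one, as it did for 11056 of the 23774 genes compared. Lpl is highest in chronic EAE.

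Whether EAE raised these genes was asked first. In the fit, Clec7a rose 27.7-fold in EAE against naive, by 4.79 ± 0.30 (SE) on the log2 scale, with a limma adjusted p of 0.0279. It was 4.42 higher in wild-type and 5.16 higher in Cx47-deficient mice. Clec7a was the only 1 of the 10 genes called, while 0.247% of all genes were called higher and 0.00386% lower. The call was lost without any 1 of the 8 arrays, each such fit having fewer residual degrees of freedom. The difference was then between 4.43 and 5.15, and it stayed at 4.79 without either iguratimod or either chronic array. It was 5.15 without wild-type naive, 4.43 without Cx47-deficient naive, 4.92 without wild-type EAE and 4.66 without Cx47-deficient EAE.

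Differences as large as that of Clec7a stood at other genes of the list without passing the test. Cst7 was 5.48 ± 0.79 higher in EAE (limma adjusted p 0.0854), with 1 of 2 naive arrays well above background. Itgax was at least 25.5-fold higher (limma adjusted p 0.0532) and Gpnmb 4.63 ± 0.75 higher (limma adjusted p 0.107), Gpnmb too with 1 of 2 naive arrays well above background. Without the wild-type naive array Cst7 had a limma adjusted p of 0.0476. With median centring in place of the 75th percentile, Clec7a, Cst7, Itgax and Gpnmb were all called. With normexp background correction Cst7 was called beside Clec7a. The other genes differed less: Tyrobp by 1.54 ± 0.33, Cd68 by 1.47 ± 0.35, Trem2 by 1.09 ± 0.31, Spp1 by 1.08 ± 0.40 and Axl by 0.75 ± 0.26, with limma adjusted p-values of 0.199 to 0.631. Lpl was at -0.59 ± 0.49 (limma adjusted p 0.923). The median over the 10 genes was 1.5, with 9 above 0, against -0.06 over all genes. Within the genotypes, 6 of the 10 genes were higher in EAE by 2-fold or more between the wild-type arrays (3.35% of genes higher, 1.92% lower) and 8 of the 10 between the Cx47-deficient arrays (5.08% higher, 2.11% lower), and 0 were lower in either.

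Genes that act with these receptors or with related ones were read from lists. Of 11 genes of TREM2 and ITAM signalling, 11 were above 0 in EAE against naive and 0 were called by limma, with a median of 1.27. Among them were the kinases Syk (1.27 ± 0.37) and Btk (1.12 ± 0.27), the phospholipase Plcg2 (1.21 ± 0.24) and the phosphatase Ptpn6 (1.91 ± 0.37). In the Dectin-1 list, the galectin Lgals3 was 4.20 ± 0.42 higher. The lectin receptor Clec4n was 3.88 ± 0.47 higher, with 1 of 2 naive arrays well above background, and Clec4e, not well above background on either, was at least 10.8-fold higher. The downstream adaptors Bcl10 (0.13 ± 0.19) and Malt1 (0.00 ± 0.34) were near 0. Of the list, 0 of 9 were called by limma. The TAM system beside Axl had a median of 0.20 over 7 genes with 0 called by limma, with Mertk at 0.33 ± 0.18 and Gas6 at -0.04 ± 0.18. Of the 14 genes of lipoprotein lipase and lipid handling, 3 rose: Apoc2, an activator of the lipase (21.6-fold, limma adjusted p 0.0385, with 1 of 2 naive arrays well above background), Ch25h, which makes 25-hydroxycholesterol (13.2-fold, limma adjusted p 0.0433), and the fatty acid receptor Cd36 (at least 2.27-fold, limma adjusted p 0.0385). The 11 integrin and osteopontin partners had a median of 0.36, and Icam1, the ligand of leukocyte integrins, rose 5.76-fold (limma adjusted p 0.0472).

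Other genes of the program and of resting microglia divided in the same fit. Of 22 further disease-associated genes, 18 were above 0 with a median of 0.60, and Cd52, a small surface glycoprotein of leukocytes, rose 14.4-fold (limma adjusted p 0.0496). Lyz2 (4.48 ± 0.47) and Lgals3 were as high without passing the test. Apoe (0.47 ± 0.31), Cd9 (0.62 ± 0.23) and the growth factor Igf1 (0.04 ± 0.23) were lower in the order. The 16 lysosomal genes had a median of 0.54 with 0 called by limma, highest for the proteases Ctss (1.90 ± 0.28) and Ctsz (1.42 ± 0.27). The 13 genes of homeostatic microglia had a median of 0.13 with 0 called by limma, with P2ry12 at -0.07 ± 0.22 and Tmem119 at 0.70 ± 0.34. Beside these, markers of other cell types had higher values in EAE. Among leukocytes the median was 3.69 over 13 monocyte and macrophage genes (1 called, Plac8, at least 54.3-fold), 3.76 over 11 T and NK cell genes (0 called by limma) and 2.59 over 9 neutrophil genes (1 called, S100a9, 9.74-fold). These medians include genes not well above background on either naive array: 3 monocyte and macrophage, 6 T and NK cell and 2 neutrophil genes. With dim values raised to each array's lowest signal well above background, they were 2.59, 1.19 and 1.88 between the wild-type arrays and 3.59, 2.84 and 2.93 between the Cx47-deficient ones, in the same order, where the 10 genes had 1.21 and 1.80. Endothelial genes had higher values as well, with a median of 2.24 and 10 of 10 above 0 (0 called by limma, 10 at an unadjusted p under 0.05), as were pericyte and fibroblast genes, with a median of 1.14 and 9 of 9 above 0 (0 called by limma, 6 at an unadjusted p under 0.05). Over 12 astrocyte genes the median was 0.07, and over 10 myelin genes -0.61. What part a changed share of these cells had in the values of the 10 genes was not tested.

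**Figure D2:**
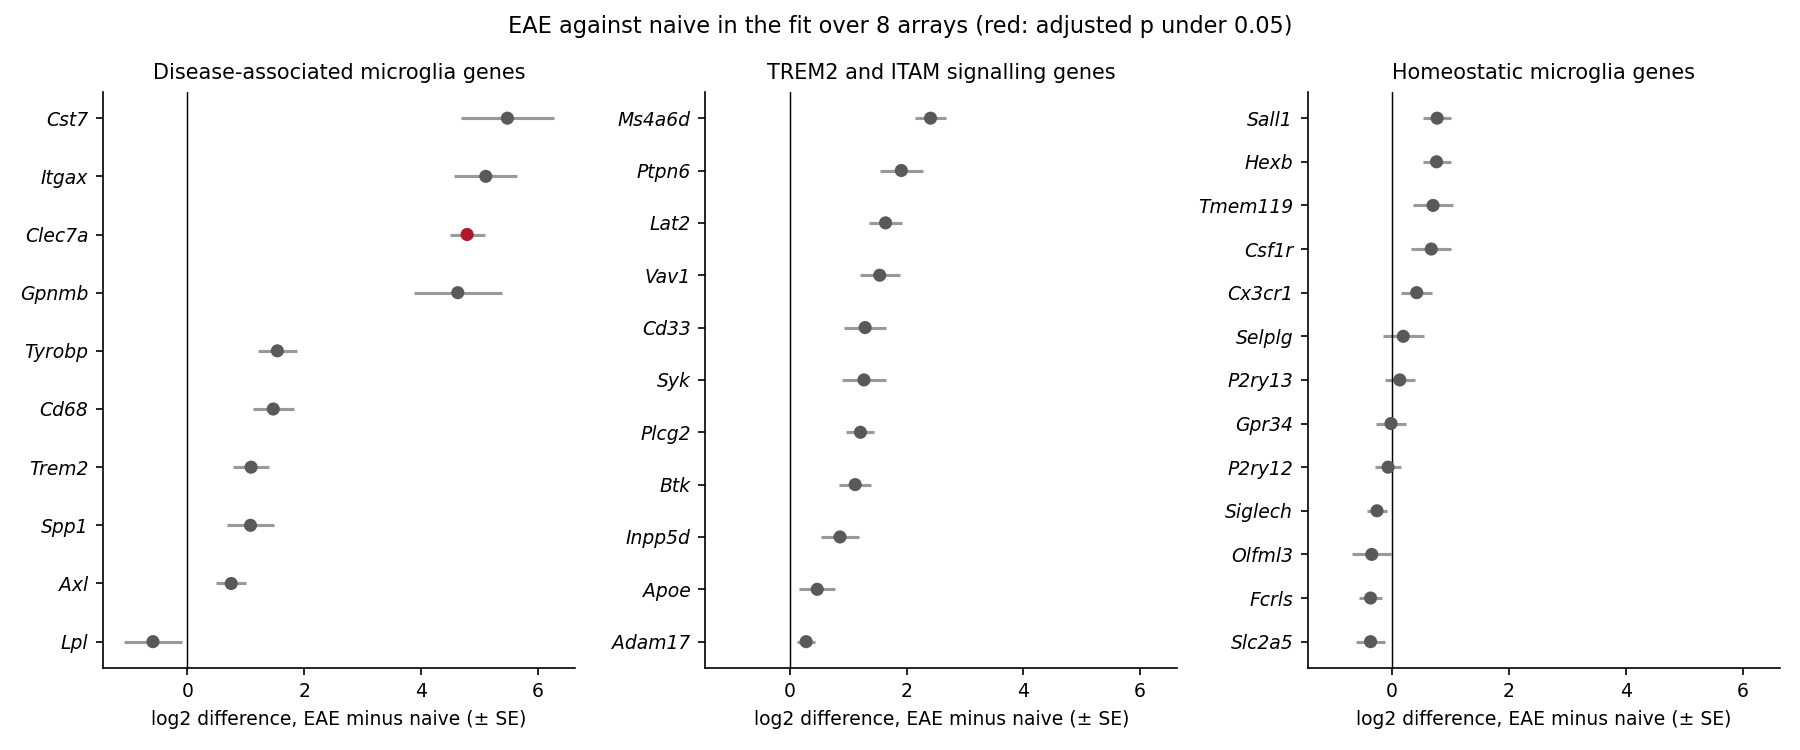
Fitted log2 difference between EAE and naive (horizontal axis, ± SE) for the 10 genes, for 11 genes of TREM2 and ITAM signalling and for 13 homeostatic microglia genes, from the limma fit over the 8 arrays; red marks an adjusted p under 0.05. Clec7a, at 4.79, is the only gene in red, and Cst7, Itgax and Gpnmb lie beside it, while the homeostatic genes lie between -0.37 and 0.77.

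**Figure D3:**
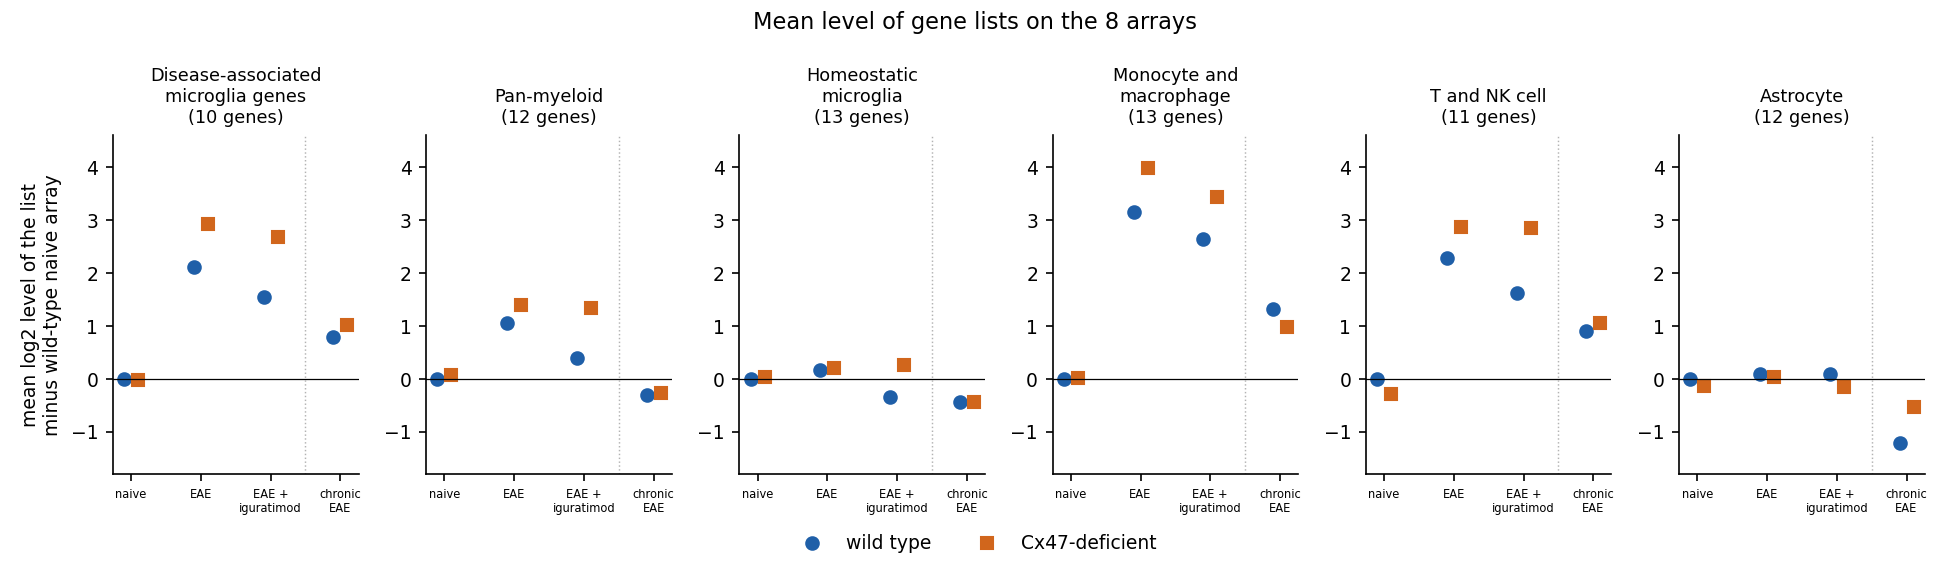
Mean log2 level of each gene list on the 8 arrays minus that of the wild-type naive array; circles are wild-type arrays, squares Cx47-deficient arrays, and the dotted line marks the change of slide. The 10 genes reach 2.12 on the wild-type and 2.93 on the Cx47-deficient EAE array, the monocyte and macrophage genes 3.16 and 3.99, and the homeostatic microglia genes 0.17 and 0.20.

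With iguratimod, the mean of both genotypes lay between naive and untreated EAE for 9 of the 10 genes. How many of all genes lay so was not counted. For Lpl the mean was -0.79, against -0.16 in naive samples and -0.75 in EAE. In Cx47-deficient mice, Trem2 and Spp1 were 0.05 above untreated EAE. Against naive, limma called 0 of the 10 genes and 1 gene of all (0.00386% higher, 0% lower). Clec7a was at 4.17 ± 0.30 (limma adjusted p 0.06), Cst7 at 4.93 ± 0.79, Gpnmb at 4.0 ± 0.75 and Itgax at least 14.5-fold higher. The median over the 10 genes was 1.13. The comparisons of both EAE groups with naive share the naive arrays.

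Set directly against untreated EAE, the iguratimod arrays gave no call among the 10 genes, nor among all genes, by limma (0% in either direction, 546 genes at an unadjusted p under 0.05). All 10 fitted differences were below 0, between -0.82 for Itgax and -0.03 for Lpl, with a median of -0.40. Over all genes the median was -0.01, with 12571 of 25883 above 0. Pan-myeloid genes had a median of -0.36 (0 of 12 above 0) and endothelial genes -0.75 (0 of 10). Astrocyte genes had -0.09 (5 of 12) and myelin genes 0.01 (6 of 10). The median of the 10 genes turned to 0.08 without the wild-type iguratimod array and was -0.91 without the Cx47-deficient one. The genotypes therefore need to be read apart.

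In the wild-type pair, 9 of the 10 genes were lower with iguratimod, and the median was -0.68 against 0.00 over all genes. Itgax was lower by 2-fold or more, at -1.44, where 1.22% of genes were lower and 3.08% higher by that much. Cst7 followed at -0.87, Trem2 and Clec7a at -0.80 each, Cd68 at -0.76, Tyrobp and Gpnmb at -0.60 each, Spp1 at -0.43 and Axl at -0.29. Lpl was the exception, at 0.82. Lists of other genes had medians of a like size in this pair, with a median of -0.77 over 12 pan-myeloid genes, -0.67 over 13 homeostatic microglia genes and -0.71 over 11 genes of TREM2 and ITAM signalling. The median was -0.79 over 11 T and NK cell genes, 3 of them lower by 2-fold or more, and -0.50 for each of the monocyte and macrophage, endothelial, and pericyte and fibroblast lists. The neutrophil median was 0.05 and the astrocyte one 0.00. What part a changed share of these cells had in the values of the 10 genes was not tested.

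In the Cx47-deficient pair, the 10 genes differed less, with a median of -0.15 and 0 of them past 2-fold, where 0.268% of genes were higher and 3.53% lower by that much. Trem2 and Spp1 were at 0.05, Tyrobp at -0.03, Axl at -0.04, Cd68 at -0.10, Itgax at -0.19 and Cst7 at -0.23. Clec7a (-0.45), Gpnmb (-0.67) and Lpl (-0.89) were lower. Under median centring all genes shifted by 0.21 in this pair and the median of the 10 genes was 0.06, which relative to all genes is again -0.15. The pan-myeloid median was -0.01, the homeostatic one -0.03 and the T and NK cell one -0.06. The monocyte and macrophage median was -0.50 and the endothelial one -0.91, while 7 of 9 neutrophil genes were lower by 2-fold or more, with a median of -1.26. Whether the effect of iguratimod differed between the genotypes has no test, with 1 array in each group.

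Cx47 deficiency was compared next. Over the 4 pairs together, limma called 0 of the 10 genes and 0 of all genes (0% in either direction, 1144 at an unadjusted p under 0.05). The fitted differences had a median of 0.52 against 0.00 over all genes, and 9 of the 10 were above 0. Itgax was 1.09 ± 0.38 and Clec7a 0.87 ± 0.21 higher, and Spp1 was at -0.06 ± 0.28, with limma adjusted p-values from 0.83 to 0.958 over the list. Genotype differences that vary between the conditions count as spread in that fit.

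The pairs were unlike each other. In the naive pair the median over the 9 genes that could be compared was -0.13, with 1 higher by 2-fold or more (Lpl, at 1.02) and 2 lower (Spp1 at -1.04 and Cst7 at -1.08, a bound), where 8.07% of genes were higher and 2.63% lower by that much. That median is the value of Gpnmb, whose wild-type signal was raised to a floor of -5.07, above the -5.20 of the Cx47-deficient array. Before raising, Gpnmb differed by 0.86. The 7 genes well above background on all 8 arrays had a median of 0.12, so the sign is not settled. The sign for Lpl turned with its RefSeq probe. In the EAE pair the median was 0.82, with 5 higher (Gpnmb 1.64, Lpl 1.57, Cst7 1.24, Itgax 1.17 and Clec7a 1.06) and 0 lower, where 6.71% of genes were higher and 0.677% lower. Lpl counts here by its brightest probe. Its RefSeq probe, at -1.16 on the wild-type and -0.63 on the Cx47-deficient array, was not past 2-fold. Trem2 (0.38) and Tyrobp (0.39) differed less, and Spp1 was at -0.01. Median centring shifted all genes to -0.37 in this pair and the 10 genes to 0.48, and turned the sign of Axl from 0.17 to -0.17. Relative to all genes, the median of the 10 was 0.85 under both scalings.

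The iguratimod pair held the widest genotype difference. There 6 of the 10 genes were higher by 2-fold or more on the Cx47-deficient array and 0 were lower, where 2.60% of genes were higher and 2.26% lower. Itgax was 2.41 higher, Cst7 1.88, Gpnmb 1.57, Clec7a 1.42, Cd68 1.23 and Trem2 1.22, and Tyrobp was 0.96 higher. The median was 1.22 against -0.03 over all genes. In this pair the pan-myeloid genes were higher too, by 2-fold or more for 9 of 12 with a median of 1.11, as were homeostatic microglia genes with a median of 0.82, T and NK cell genes with 1.52 and monocyte and macrophage genes with 0.98, while the neutrophil median was -0.52. In the EAE pair the pan-myeloid median was 0.32 and the homeostatic one 0.10. The monocyte and macrophage median there was 0.64, with 4 of 13 genes higher by 2-fold or more, that of T and NK cell genes 0.80, of neutrophil genes 0.84 and of B and plasma cell genes 1.03. The part of these cells in the values of the 10 genes was not tested in either pair. In the chronic pair the median over the 10 genes was 0.34, with Cst7 higher (1.13) and Gpnmb lower (-1.25) by 2-fold or more, where 1.63% of genes were higher and 1.29% lower.

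**Figure D4:**
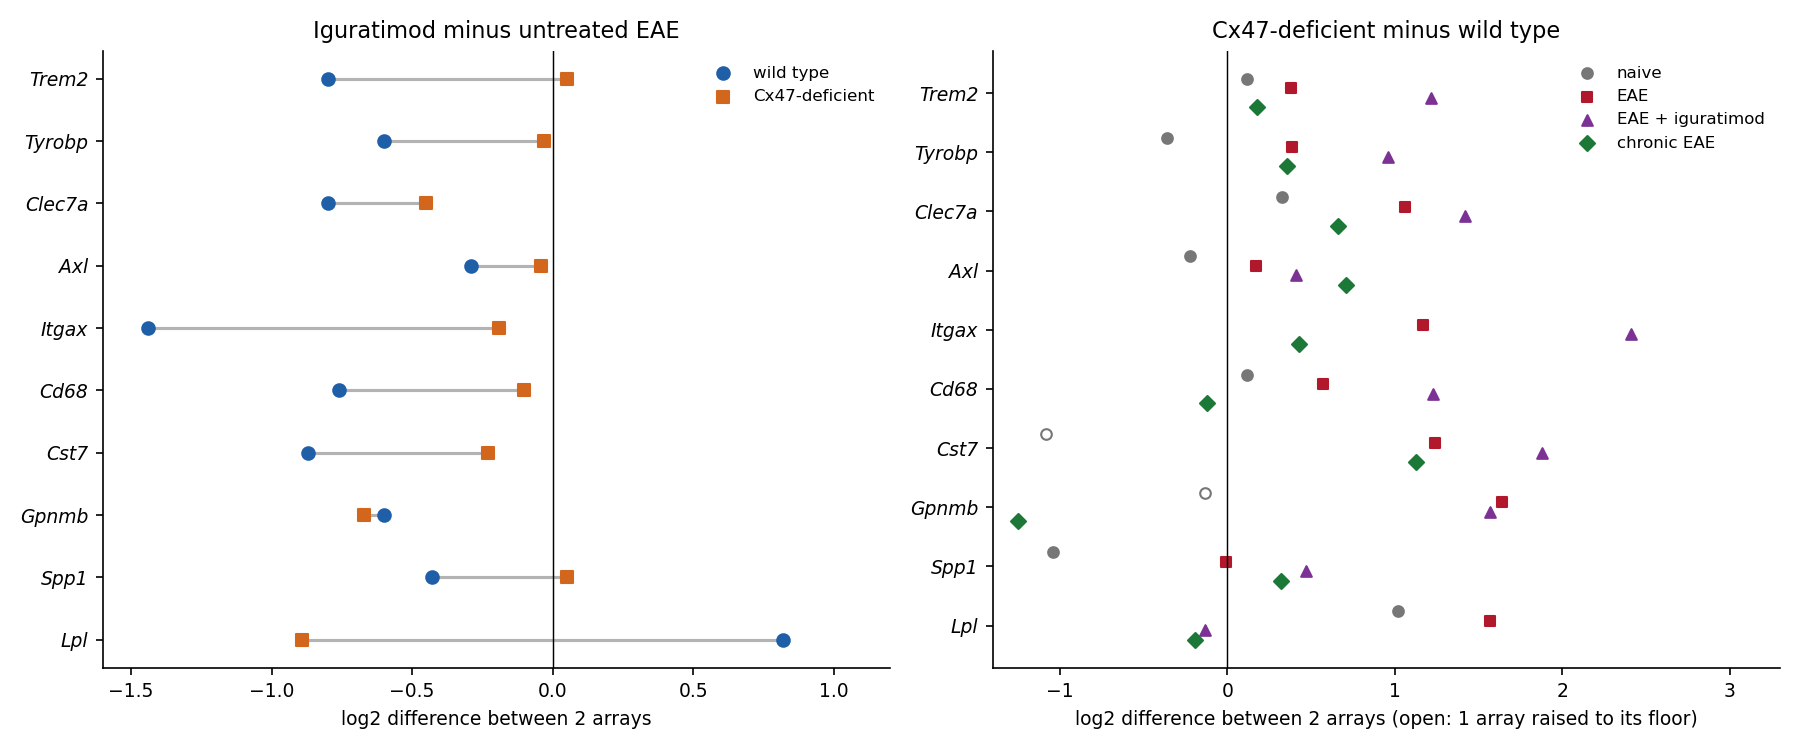
Log2 differences between 2 arrays for the 10 genes: at left iguratimod minus untreated EAE in each genotype, at right Cx47-deficient minus wild type in each condition, where open symbols have 1 array raised to the lowest signal well above background. At left the wild-type circles lie below 0 except for Lpl, and the Cx47-deficient squares lie nearer to 0 than the circles except for Gpnmb and Lpl, and at right the iguratimod pair is widest for Itgax, at 2.41.

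In chronic EAE most of the genes were lower than in EAE. By limma, 6 of the 10 genes fell: Clec7a by 3.21 (adjusted p 0.0279), Cst7 by 3.44 (0.049), Itgax by 2.69 (0.0432), Tyrobp by 2.08 (0.0386), Axl by 1.58 (0.0386) and Trem2 by 1.42 (0.0472). In this comparison 5.44% of all genes were called lower and 9.07% higher, and the median of the 10 was -1.79 against 0.02 over all genes. Cd68 (-1.36 ± 0.35), Gpnmb (-1.99 ± 0.75) and Spp1 (-0.60 ± 0.40) did not pass the test. By 2-fold or more, 7 genes were lower and 1 higher between the wild-type arrays (12.5% of genes lower, 18.1% higher), and 8 lower and 1 higher between the Cx47-deficient arrays (5.59% lower, 11.8% higher). Lpl was called higher, by 2.20 ± 0.49 (limma adjusted p 0.0482). Of the 7 calls, 1 was left with no filter on dim probes, and leaving out an array left between 0 and 4. There were 0 without wild-type EAE, Cx47-deficient EAE or wild-type chronic, 1 without Cx47-deficient chronic, and 4 without any 1 of the other 4 arrays.

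Some genes near these in the pathways fell as well. Of 11 genes of TREM2 and ITAM signalling 6 fell, among them the phosphatase Ptpn6 (-2.26 ± 0.37), the exchange factor Vav1 (-1.73 ± 0.34) and Apoe, an apolipoprotein that TREM2 binds (-1.46 ± 0.31). Of 9 genes in the Dectin-1 list, which also holds other lectin receptors, 5 fell. Among them were the lectin receptor Clec4n (-3.08 ± 0.47) and the Fc receptor gamma chain Fcer1g (-2.26 ± 0.32). Another of the 5, the adaptor Card9, was near background in EAE and not well above it in chronic EAE, so it was at least 1.31-fold lower. The adaptors Bcl10 (-0.13 ± 0.19) and Malt1 (0.88 ± 0.34) were not called by limma. Of 12 pan-myeloid genes 8 fell and 2 rose, Ptprc (2.07 ± 0.40) and Itgam (0.71 ± 0.16), and of 13 homeostatic microglia genes 0 were called by limma, with a median of -0.60. Markers of other leukocytes fell too: 7 of 13 monocyte and macrophage genes (median -2.80), among them Lyz2 (-2.90 ± 0.47) and Plac8 (-3.73 ± 0.48), 2 of 11 T and NK cell genes (median -1.67) and 3 of 9 neutrophil genes (median -1.54). Of 10 myelin genes 3 fell and 1 rose, with a median of -1.08, and of 10 endothelial genes 1 fell, with a median of -1.47. Of 12 astrocyte genes Gfap (-2.70 ± 0.22) and Gja1 (-1.16 ± 0.26) fell, with a median of -0.75 and 0 of the 12 above 0. These changes cannot be told apart from the change of slide and from the lower 5′ signal on the chronic arrays. What part a changed share of these cells had in the values of the 10 genes was not tested.

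Of the 10 genes, Axl and Cd68 had probes farther from the 3′ end with lower signal on the chronic arrays, while the upstream probes of Lpl had higher signal there. For Axl, the probe at base 4208 of its transcript was at -0.83 ± 0.26 in chronic EAE against naive. The Axl probe at base 2498 went from -3.61 and -3.65 to -6.58 and -6.43, not well above background, and was at least 4.53-fold lower (limma adjusted p 0.0338 over probes). For Cd68, the difference went from 0.11 ± 0.36 at the probe nearest the 3′ end to -0.20 ± 0.39 at the next and -0.91 ± 0.28 at the one farthest from it, and the first 2 do not differ beyond their errors. In EAE against naive, on a common slide, the 3 Cd68 probes gave 1.47, 1.5 and 1.48 and the Axl probes 0.75 and 0.20. For Clec7a, the probe at base 165 was not well above background on the naive and chronic arrays, so it gives no difference between them. In EAE against naive that probe was at least 1.96-fold higher, a bound that sets no size beside the 4.79 of the probe at base 2087.

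Against naive, limma called 0 of the 10 genes in chronic EAE, while 0.707% of all genes were called higher and 0.24% lower. Gpnmb was at 2.64 ± 0.75 (limma adjusted p 0.0961), Cst7 at 2.04 ± 0.79 (0.15), Clec7a at 1.58 ± 0.30 (0.0669), and Itgax at least 3.96-fold higher (0.0762). Axl was at -0.83, Tyrobp at -0.54 and Trem2 at -0.33. By 2-fold or more, 4 genes were higher and 1 lower between the wild-type arrays (16.6% of genes higher, 9.64% lower), and 5 higher and 0 lower between the Cx47-deficient arrays (8.55% higher, 2.29% lower). The median was 1.03 and became 0.27 without the Cx47-deficient naive array. By value, Gpnmb, Cst7, Clec7a, Itgax and, on its brightest probe, Lpl were above both naive arrays on both chronic arrays. Trem2, Tyrobp and Axl were below both naive arrays there. Itgax was not well above background on either naive array, nor were Cst7 and Gpnmb on 1 of 2. How many of all genes were separated in this way was not counted, and slide and chronic EAE cannot be told apart.

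The 6 Lpl probes fell into a 5′ and a 3′ set with unlike patterns. The 3 upstream probes lay between chr8:71405538 and chr8:71413370 and were designed on AK154419, AK170106 and ENSMUST00000101463. The 3 downstream ones lay between chr8:71419652 and chr8:71430326 and were designed on NM_008509. In chronic EAE against EAE the upstream probes were at 2.26 ± 0.95, 2.94 ± 0.81 and 2.20 ± 0.49, in order along the gene, and the downstream ones at -0.78 ± 1.01, -0.09 ± 0.55 and 0.22 ± 0.64. The call of Lpl as higher thus came from the probe designed on ENSMUST00000101463. Upstream, the first 2 probes were not well above background on the wild-type EAE array, and downstream, the first was well above background on 2 of 8 arrays. Against naive, chronic EAE was at 1.03 ± 0.95, 1.54 ± 0.81 and 1.60 ± 0.49 on the upstream probes and at -0.75 ± 1.01, 0.60 ± 0.55 and 0.88 ± 0.64 on the downstream ones, so the upstream set was not the lower one. In EAE against naive the upstream probes were at -1.24 ± 0.95, -1.39 ± 0.81 and -0.59 ± 0.49, and the downstream ones at 0.02 ± 1.01, 0.69 ± 0.55 and 0.66 ± 0.64. The probe at base 1340, whose sequence is shown, was at -3.4 and -4.12 in the naive pair, -3.36 and -2.79 in EAE, -4.28 and -3.19 with iguratimod, and -2.7 and -3.62 in chronic EAE. The last probe, at base 3484 of the transcript, was at -0.93 and -2.18 in the naive pair, -1.16 and -0.63 in EAE, -1.97 and -0.89 with iguratimod, and -0.16 and -1.18 in chronic EAE. On both of these probes, iguratimod was lower than EAE in both genotypes.

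**Figure D5:**
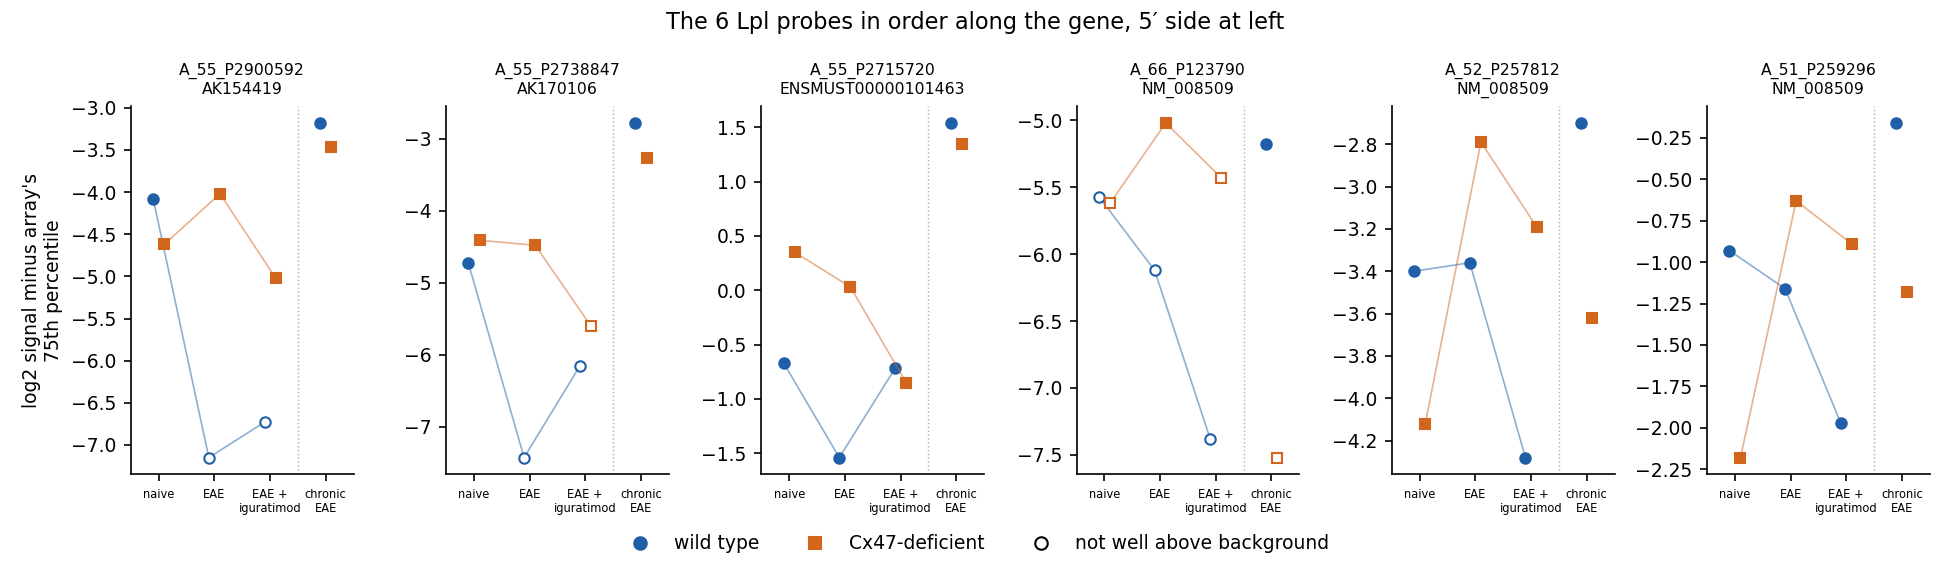
Log2 signal minus the array's 75th percentile of the 6 Lpl probes, from the 5′ side at left to the 3′ side at right, with the design transcript above each panel (each panel has its own vertical range); circles are wild-type arrays, squares Cx47-deficient arrays, and open symbols were not well above background. The 3 left probes are highest on both chronic arrays and lowest on the wild-type EAE array, and the 3 right probes do not follow that order.

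Across the 8 arrays, the Cx47-deficient EAE array was the highest for 7 of the 10 genes, the Cx47-deficient iguratimod array for 2 (Trem2 and Spp1) and the wild-type chronic array for Lpl. How many of all genes were highest on each array was not counted. Against wild-type EAE, 6.71% of all genes were higher by 2-fold or more on the Cx47-deficient EAE array and 0.677% lower. The mean of the monocyte and macrophage list was highest on that array too. The likeness of profiles was measured as the root mean square difference of log2 values over the 8 arrays after each gene's mean was removed. Within the list, Trem2 and Cd68 were closest, at 0.19, followed by Trem2 and Axl at 0.32 and Trem2 and Tyrobp at 0.33. Clec7a and Itgax were 0.41 apart. Among 20359 other genes, those closest to Trem2 were Lpxn at 0.09, Gpr160 at 0.11 and Tapbp, Slc7a7 and Cd300c at 0.12. Those closest to Tyrobp were the complement subunit gene C1qc at 0.12 and Lgals9, the Fc receptor gamma chain Fcer1g and the microglial marker Aif1 at 0.13. C1qc was at 2.65 and 2.59 in the naive pair, 4.09 and 4.49 in EAE, 3.27 and 4.49 with iguratimod, and 2.06 and 2.24 in chronic EAE. The mean of the 10 genes was followed most closely by Uba7 at 0.11, Pilra and Slfn8 at 0.12 and Cd72 at 0.15. All these profiles share the same 8 arrays.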

How the data were processed

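The deposited scanner files hold spot intensity with background and spatial trend subtracted, made by Agilent Feature Extraction in version 10.7.1.1 per the file headers (9.5.1.1 per the submitters' processing notes, a difference not resolved). Flags of 0 or 1 per spot were used as deposited. The authors' processed intensity table, with the same values at each rank of all 8 columns within 0.1%, served as an alternative. Each array's percentile 75 was subtracted from the log2 of the deposited signal. Outlier spots (38 to 73 an array) were left out, and a probe was kept when well above background on at least 2 of 8 arrays. The brightest kept probe stood for a gene. Names came from a RefSeq table for 32994 probes by accession, 10224 by symbol and 520 by synonym, and 12867 kept the file's name. Conditions were compared with limma 3.58.1 (R 4.3.3, prior SD 0.234), with calls under 0.05 after Benjamini-Hochberg adjustment, and checked on simulated data. In differences between 2 arrays, dim values were raised to the array's lowest signal well above background. A bound written at least N-fold sets the brighter group's mean against the mean of that floor or the dim probe's own signal, whichever was higher. Named genes were the 10, members of the lists, and the 5 closest profiles (entries without a gene symbol not named). The members and lists were chosen with earlier results of these data known. The number of arrays limits the precision. The level of the targeted gene is not reported here.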

Additional observations from a re-analysis of the deposited data

Results flagged for a closer look

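For Cst7 and Gpnmb the genotype difference changed sign between conditions, and no array had a replicate, so these differences were not tested. Cst7, as Cx47-deficient minus wild type on the log2 scale, was at -1.08 in the naive pair, where the Cx47-deficient array was at its floor, and at 1.24 (EAE), 1.88 (iguratimod) and 1.13 (chronic EAE) in the other pairs. Gpnmb was at 1.64 (EAE) and 1.57 (iguratimod) but -1.25 in the chronic pair, whose arrays lay on the other slide. Lpl, on its brightest probe, was 0.82 higher with iguratimod than in untreated EAE in wild-type mice and at -0.89 in Cx47-deficient mice, a difference that was not tested either. With the RefSeq probe of Lpl the wild-type value was -0.81.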

How the results depend on the processing

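No paired analysis was possible because each group held 1 array and the labels give no replicate numbers. The number of the 10 genes called in EAE against naive was 2 under normexp, 4 under median centring, 0 on slide 1 alone and 0 to 1 without an array. With iguratimod against naive it was 1 under normexp, 4 under median centring, 1 with a filter on all 8 arrays, and 0 without an array. In chronic EAE against naive it was 1 under normexp, 1 with the mean of probes, 1 with the filter on all 8 arrays, and 0 without an array. In chronic EAE against EAE it was 1 with no filter and 0 to 4 without an array. There Cst7 and Trem2 were not called under quantile normalization (limma adjusted p 0.0514 and 0.0512) or with the authors' processed values (0.0515 and 0.0516). Without the genotype term Itgax (0.0623) and Trem2 (0.0562) were not called. With median centring Cd68 and Gpnmb were called as well. The median of chronic EAE against naive was 0.54 under normexp, 0.67 under median centring, 0.65 with the mean of probes, 0.11 with the filter on all 8 arrays and 0.68 with the RefSeq probe of Lpl. That of chronic EAE against EAE was -1.51, -2.19, -2.04 and -1.42 under the first 4 of these. With the filter on all 8 arrays, which leaves 7 of the 10 genes, the medians were 1.09 in EAE and 0.89 with iguratimod against naive, and 0.12, 0.39 and 0.96 in the naive, EAE and iguratimod genotype pairs. Median centring gave -0.45 in the naive and 0.48 in the EAE genotype pair, and the RefSeq probe of Lpl 0.55 in the latter. Without an array, the medians ranged from 1.16 to 1.87 (EAE), 0.67 to 1.61 (iguratimod) and 0.27 to 1.22 (chronic) against naive, -0.91 to 0.08 for iguratimod against EAE, -1.90 to -1.55 for chronic EAE against EAE and 0.28 to 0.61 for genotype. The genotype difference of Lpl in the naive pair turned to -0.20 with the mean of probes and to -1.25 with its RefSeq probe, which was chosen after seeing the data, as was the fit of each probe. Over all genes, the calls ranged over the alternatives from 0 to 340 (65 here) in EAE against naive, 0 to 210 (1 here) with iguratimod, 1 to 3893 (245 here) in chronic EAE against naive and 1 to 7580 (3755 here) in chronic EAE against EAE. Over the alternatives the EAE difference ranged from 3.41 to 6.87 for Cst7, 2.22 to 5.26 for Gpnmb and 2.56 to 5.60 for Itgax, genes whose naive signals were dim.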
